A study of Gossypium hirsutum with 6 samples.

Results

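Ovules of a fiberless cotton mutant had higher levels than the wild type of 5 genes of the basic helix-loop-helix (bHLH) transcription factor family: *APG* (Gh_D04G1354), *BHLH93* (Gh_D06G2316), *BHLH111* (Gh_A13G0192), *BHLH35* (Gh_A13G1818) and *BHLH82* (Gh_D05G0369). They were taken as a set because the study's heat map of the bHLH family marks them, among others, as upregulated in the mutant. The study's text differs, since it counts 5 upregulated bHLH genes and names *BHLH82*, *BHLH130* and *BEE3*, beside predicted new genes. It does not name *APG*, *BHLH93*, *BHLH111* or *BHLH35* there, so only *BHLH82* of this set is in both. They are 5 of the 65894 genes in the deposited table. That choice used the values of these same libraries, so the differences between lines given here for these genes are a description and carry no test. RNA was sequenced from ovules of field-grown *Gossypium hirsutum* collected at -3 and -1 DPA (days post anthesis), with both stages mixed in every library. The 3 Xu142 libraries come from the variety Xuzhou142, a wild type that makes fiber, and the 3 *Xu142fl* libraries from its fibreless mutant Xuzhou142fl. Neither group was treated, and the study describes the libraries of a line as biological replicates. How much of each stage went into a library was not given, so a different mixture of stages and a different line cannot be told apart.

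The bHLH proteins are transcription factors with a basic stretch that touches DNA, often at the E-box motif CANNTG, and a helix-loop-helix stretch through which they pair with each other. In *Arabidopsis* leaf hairs, the bHLH protein GL3 works in a complex with the MYB protein GL1 and the WD-repeat protein TTG1, and cotton fiber initiation has been modelled on that complex. In rice, a bHLH protein called APG binds the atypical bHLH protein PGL1 and limits grain length, although the study does not expand the name. In *Arabidopsis*, *BHLH93* acts in flowering under short days, its protein pairs with the stomatal regulator FAMA, and *BHLH82* is one of the genes that promote root hair growth. The other two names follow the *Arabidopsis* bHLH numbering.

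The FPKM (sequenced fragments divided by transcript length and by the mapped reads of the library) summed to between 804997 and 844877 a library, with a median gene between 3.38 and 4.01 FPKM. The table holds no read counts, so the depth behind a value is unknown and no interval for counting error is given. In a principal component analysis of the 56395 genes that reached 0.1 FPKM on average, the first component (51.1% of the variance) separated the lines. On the second (23.4%), Xu142 replicate 2 (-66.61) and *Xu142fl* replicate 1 (-100.48) stood apart, with the other 4 libraries at 23.95 to 50.34. The reading of the labels was checked with the MML3 genes, MYB genes of fiber initiation that the study describes as lower in the mutant. That description used these same libraries, so the check can show only that the labels were read as in the study. In the wild type, Gh_D12G1628 had 56.0 ± 4.98 FPKM (SD, n = 3), against 0.277 ± 0.0950 in the mutant. Gh_A12G1503 had 38.8 ± 4.91 against 7.69 ± 0.693 FPKM.

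*BHLH93* was the most abundant of the bHLH genes by mean FPKM in both lines. Xu142 replicates 1 to 3 had 8.14, 7.01 and 8.34 FPKM, and those of *Xu142fl* had 18.30, 16.85 and 18.45 FPKM. Every mutant library lay above every wild type library, and the lowest mutant value was 2.02 times the highest wild type value. The means were 7.83 ± 0.717 FPKM (SD, n = 3) and 17.9 ± 0.884 FPKM, a ratio of 2.28. On the scale of log2(FPKM + 0.1), which understates the change of weakly expressed genes, the difference was 1.18 (standard error 0.11). Standard errors here and below come from the limma fit described later, which draws the variance of a gene towards that of genes of similar level. *BHLH93* also varied little within lines, with an SD of 0.11 on the log2 scale against a median of 0.23 over all genes tested.

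*BHLH35* had the largest fold difference of the set. The wild type replicates 1 to 3 stood at 4.39, 2.72 and 3.96 FPKM, and the mutant replicates at 12.66, 13.24 and 13.96 FPKM. The mutant libraries were close to each other (coefficient of variation 4.90%) and the wild type libraries were spread more widely (23.5%), with replicate 2 lowest. The means were 3.69 ± 0.867 and 13.3 ± 0.651 FPKM (SD, n = 3), a ratio of 3.60 and a log2 difference of 1.85 (standard error 0.18). The gap between lines was also the widest of the set, since the lowest mutant library had 2.88 times the FPKM of the highest wild type library.

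*BHLH111*, which lies on the same chromosome (A13) as *BHLH35*, differed by a similar amount but with a wide spread in both lines. Its FPKM in replicates 1 to 3 was 3.60, 6.46 and 4.06 in the wild type and 19.91, 11.57 and 11.38 in the mutant. The high value of each line came from one of the libraries that stood apart on the second component. The means were 4.71 ± 1.54 and 14.3 ± 4.87 FPKM (SD, n = 3), a ratio of 3.04 and a log2 difference of 1.58 (standard error 0.29). The lowest mutant library was 1.76 times the highest wild type library. The coefficient of variation was 32.6% in Xu142 and 34.1% in *Xu142fl*.

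*APG* was present at a lower level. Replicates 1 to 3 of the wild type had 2.37, 2.12 and 2.31 FPKM and those of the mutant 4.42, 5.45 and 5.55 FPKM, with no overlap. The means were 2.27 ± 0.131 and 5.14 ± 0.626 FPKM (SD, n = 3), a ratio of 2.27 and a log2 difference of 1.14 (standard error 0.15). *Xu142fl* replicate 1 was the lowest mutant library here, where it was the highest for *BHLH111*.

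*BHLH82*, the member with a known root hair role in *Arabidopsis*, was the weakest of the set. It was listed at 0.44, 0.52 and 0.42 FPKM in replicates 1 to 3 of the wild type, and at 1.78, 0.88 and 0.84 FPKM in those of the mutant. The lines did not overlap, but *Xu142fl* replicate 1 had 2.07 times the mean of the other mutant libraries. The means were 0.460 ± 0.0529 and 1.17 ± 0.532 FPKM (SD, n = 3), a ratio of 2.54 and a log2 difference of 1.10 (standard error 0.33). Without *Xu142fl* replicate 1 the log2 difference was 0.78, below a 2-fold change.

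**Figure D1:**
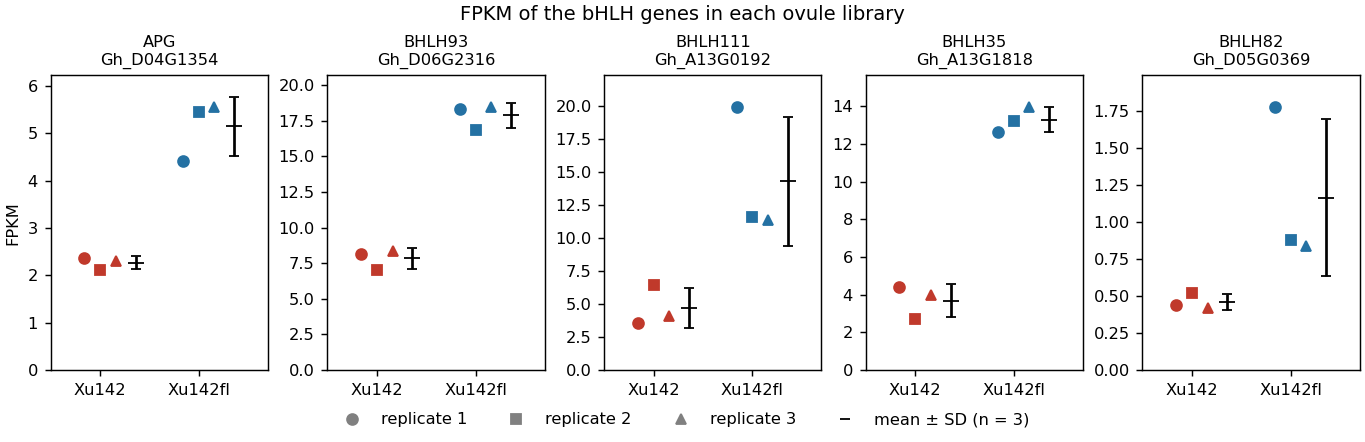
FPKM of each bHLH gene (vertical axis from 0, a scale of its own for each gene) in the 3 Xu142 and 3 *Xu142fl* libraries, with marker shapes for replicates 1 to 3 and the mean ± SD of each line in black. In all 5 genes the mutant libraries lie above the wild type libraries, and in *BHLH111* and *BHLH82* the circle of *Xu142fl* replicate 1 (19.91 and 1.78 FPKM) lies far above replicates 2 and 3.

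All 5 genes were separated between lines, which the way they were chosen favours. Over all genes tested, 15.6% had every *Xu142fl* library above every Xu142 library. The 5 log2 differences ran from 1.10 to 1.85 with a median of 1.18, where the median of all 56395 genes was 0.01. A limma fit was made over all genes, with Benjamini-Hochberg adjustment. In it, 0 of the 5 passed an adjusted p of 0.001 together with a 2-fold change, where 0.195% of all genes passed in this direction. The study set these limits on another test, DEGseq, so the count does not bear on its own calls. At an adjusted p of 0.05 with the same fold change, 4 of the 5 passed (all but *BHLH82*), against 1.67% of all genes. The latter share ranged from 0.806% without *Xu142fl* replicate 2 to 2.84% without *Xu142fl* replicate 1. All 5 had an unadjusted p under 0.05 and were higher, as were 12.9% of all genes. These counts support nothing about the set, since its members were chosen on the same contrast. Ovules are whole tissues, so more cells that express a gene and more RNA of it per cell cannot be told apart.

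The order of the levels was the same in both lines by the mean, from *BHLH93* through *BHLH111*, *BHLH35* and *APG* to *BHLH82*. FPKM is per transcript length, so these levels can be set side by side. In Xu142, *BHLH93* lay above *BHLH111* and *BHLH35* above *APG* without overlap, whereas *BHLH111* (3.60 to 6.46 FPKM) and *BHLH35* (2.72 to 4.39 FPKM) overlapped. In *Xu142fl*, the upper 3 genes were not all separated by their spread. *BHLH111* exceeded *BHLH93* in replicate 1, at 19.91 against 18.30 FPKM, and was below *BHLH35* in replicates 2 and 3. *APG* and *BHLH82* stayed below the others in every library. Among all genes tested, *BHLH93* moved from percentile 59.4 of mean FPKM in Xu142 to percentile 80.8 in *Xu142fl*. *BHLH35* moved from percentile 40.5 to 73.8 and *BHLH111* from percentile 46.1 to 75.7. *APG* stood at percentiles 31.0 and 48.9. *BHLH82* remained among the weakly expressed genes, at percentiles 11.6 and 22.2.

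The summed FPKM of the 5 genes was nearly constant in the wild type although single genes were not. Xu142 replicates 1 to 3 summed to 18.94, 18.83 and 19.09 FPKM, and those of *Xu142fl* to 57.07, 47.99 and 50.18 FPKM. The coefficient of variation of the sum in Xu142 was 0.689%, while that of *BHLH111* was 32.6% and that of *BHLH35* 23.5%. In *Xu142fl* that of the sum was 9.16%, so the evenness was not shared by the mutant. Whether it is more than a coincidence of 3 libraries was not tested. In Xu142 replicate 2, *BHLH111* made up 34.3% of the sum and *BHLH35* 14.4%, against 19.0% and 23.2% in replicate 1. In *Xu142fl* replicate 1, *BHLH111* again had its largest share, 34.9%, and *BHLH35* its smallest, 22.2%. *BHLH93* had the largest share in 5 of the 6 libraries, from 37.2% to 43.7% in Xu142 and from 32.1% to 36.8% in *Xu142fl*. These ranges did not overlap but nearly met, at 36.8% in *Xu142fl* replicate 3 and 37.2% in Xu142 replicate 2. The smaller share in the mutant restates that the ratio of *BHLH93* between lines (2.28) was below that of the sum (2.73). It is a description, since the genes were chosen on this contrast.

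**Figure D2:**
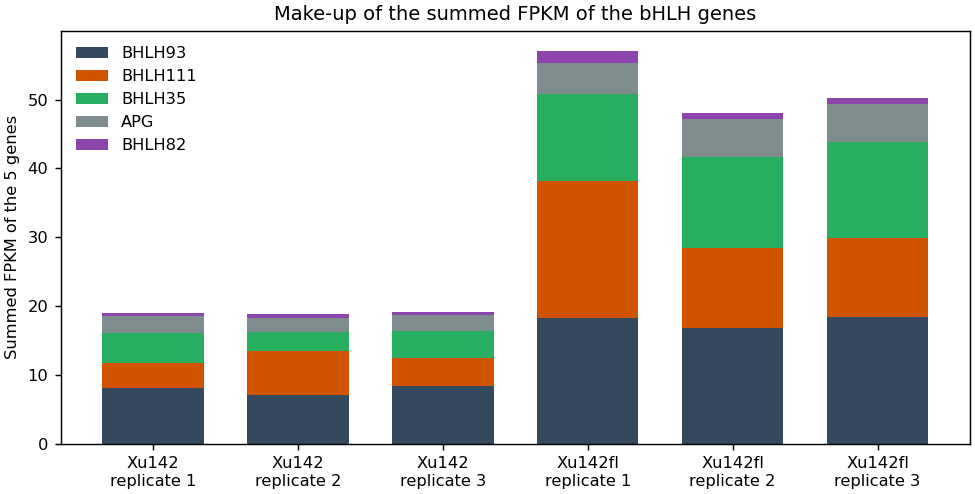
Summed FPKM of the 5 bHLH genes (vertical axis) in each of the 6 libraries, divided by gene. The 3 Xu142 bars are almost equal in height (18.83 to 19.09 FPKM) but differ in the part of *BHLH111*, and the *Xu142fl* bars reach 47.99 to 57.07 FPKM.

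The balance between members was compared in 10 pairs, which share genes. The log2 difference between the members of a pair shifted between lines by -0.71 to 0.74. On the scale of log2(FPKM + 0.1), the lines overlapped in 7 of the 10 pairs and did not in 3. The examples that follow are those 3 pairs, picked after their values were seen. The log2 level of *BHLH93* exceeded that of *BHLH35* by 1.09 ± 0.23 (SD, n = 3) in Xu142 and by 0.42 ± 0.09 in *Xu142fl*. *APG* lay below *BHLH35* in every library, with a log2 difference of -0.65 ± 0.27 in Xu142 and -1.36 ± 0.12 in *Xu142fl*. *BHLH111* exceeded *BHLH82* by 3.06 ± 0.32 in Xu142 and by 3.53 ± 0.11 in *Xu142fl*. The separation of this last pair depends on the added 0.1 FPKM, since *BHLH82* is weak. By plain FPKM, the ratio in Xu142 replicate 2 (6.46 to 0.52) was above that in *Xu142fl* replicate 1 (19.91 to 1.78), so the lines overlapped. No test was made on these pairs, because each gene was chosen on the contrast that they share.

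The variation within lines, which the choice of the genes did not use, divided the set. *BHLH111* and *BHLH82* were each highest of their line in Xu142 replicate 2 and in *Xu142fl* replicate 1, the libraries that stood apart on the second component. *BHLH111* was 1.69 times the mean of the other libraries of its line in the former and 1.74 times in the latter, and *BHLH82* was 1.21 and 2.07 times. *APG* and *BHLH35* went the opposite way and were lowest of their line in both libraries. *APG* was 0.906 and 0.804 times the mean of the others, and *BHLH35* 0.651 and 0.931 times. The median gene was also lowest of its line in these libraries, at 3.52 FPKM in Xu142 replicate 2 and 3.38 FPKM in *Xu142fl* replicate 1. The ratios are not adjusted for that, so a modest drop is not particular to these genes. *BHLH93* was lowest in Xu142 replicate 2 (0.851 times) and lay between the others in *Xu142fl* replicate 1. Over all genes tested, 20.7% were highest of their line in both of these libraries and 32.8% were lowest in both, so either behaviour was common. What sets these libraries apart was not tested.

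**Figure D3:**
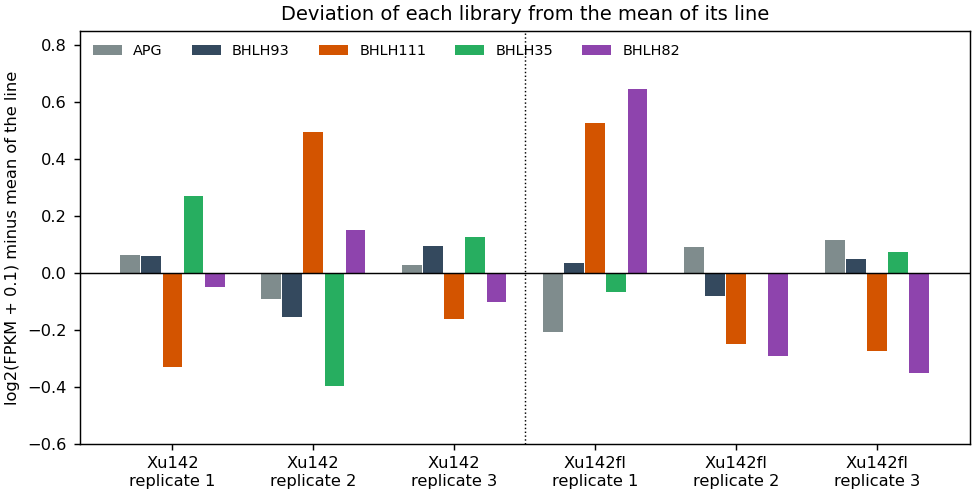
Log2(FPKM + 0.1) of each bHLH gene minus the mean of its line (vertical axis), for each of the 6 libraries, with one bar a gene and a dotted line between the cotton lines. *BHLH111* and *BHLH82* are above 0 in Xu142 replicate 2 (0.49 and 0.15) and in *Xu142fl* replicate 1 (0.53 and 0.65), where *APG* and *BHLH35* are below 0.

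The size of the difference between lines was compared with and without that pair of libraries. Its direction was fixed, because every mutant library lay above every wild type library for each of these genes. Between the remaining libraries, 2 of each line, the ratios of mean FPKM of *Xu142fl* to Xu142 were 2.35 for *APG*, 2.14 for *BHLH93*, 3.00 for *BHLH111*, 3.26 for *BHLH35* and 2 for *BHLH82*. Between *Xu142fl* replicate 1 and Xu142 replicate 2 alone, the ratios were 2.08, 2.61, 3.08, 4.65 and 3.42 in the same order. The ratio of *BHLH111* thus hardly moved, since it was raised by similar factors in both libraries (1.69 and 1.74 times the others of the line). The ratios of *BHLH93*, *BHLH35* and *BHLH82* were larger between the libraries that stood apart, and that of *APG* was smaller.

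Likeness in profile was measured as the root mean square difference of log2(FPKM + 0.1) over the 6 libraries, each gene centred on its own mean, so a smaller value means more alike. It uses the difference between lines and is a description. Within the set, *APG* and *BHLH93* were the most alike (0.13). *BHLH111* and *BHLH82* were each other's nearest member (0.31), and *BHLH35* was nearest to *BHLH93* (0.36). Many genes outside the set were nearer, from 46 genes nearer to *BHLH93* than *APG* was, to 176 nearer to *BHLH82* than *BHLH111* was, among genes that averaged 1 FPKM or more. The single nearest gene was Gh_D12G1322 for *APG* (0.02), Gh_D05G2834 for *BHLH93* (0.05), Gh_Sca035048G01 for *BHLH111* (0.11) and Gh_D02G1870 for *BHLH82* (0.07), and the files pair none of these with a name. For *BHLH35* it was Gh_D06G0115 (0.11), a gene that the study annotates as *MYB44*, with 0.500 to 0.970 FPKM in Xu142 and 2.75 to 3.16 FPKM in *Xu142fl*.

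None of the tested genes around the members on their chromosomes was called higher in the mutant. The number in a gene ID follows the order of genes on the chromosome, and the genes within 5 numbers of each member were compared by the same limma fit. Of the 50 possible positions, 44 were listed in the table and 41 were tested. At an adjusted p of 0.05 with a 2-fold change, 0 of the 41 were higher in *Xu142fl*, where 1.67% of all genes were, and 3 (7.32%) were lower, where 4.47% of all genes were. At an adjusted p of 0.001, 0 passed, against 0.750% of all genes. With no adjustment, a p under 0.05 was reached by 5 neighbours that were higher (12.2%, against 12.9% of all genes) and 12 that were lower (29.3%, against 16.9%). With so few neighbours and called genes, nothing particular to them is read from these counts. The median log2 difference of the neighbours was -0.10, with 15 above 0 and 26 below.

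Next to *BHLH111*, genes with lower values in the mutant lay 3 to 5 numbers before it. In replicates 1 to 3, Gh_A13G0188 stood at 3.22, 3.86 and 2.80 FPKM for the wild type and at 0.38, 1 and 0.49 FPKM for the mutant, a log2 difference of -2.31 (standard error 0.34, limma adjusted p = 0.0071). Gh_A13G0187 was weaker, at 0.34, 0.66 and 0.34 FPKM against 0.06, 0.15 and 0.07 FPKM, and also passed (log2 difference -1.48, limma adjusted p = 0.049). Gh_A13G0189 had 0.54, 0.25 and 0.52 FPKM against 0.00, 0.22 and 0.00 FPKM and missed the limit (limma adjusted p = 0.081). The genes on either side of *BHLH111*, Gh_A13G0191 and Gh_A13G0193, had log2 differences of 0.33 and 0.53, under a 2-fold change.

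Near *APG*, Gh_D04G1357 was the third neighbour with a call. Replicates 1 to 3 had 5.67, 4.20 and 5.21 FPKM in the wild type and 0.37, 1.68 and 1.62 FPKM in the mutant, a log2 difference of -2.17 (standard error 0.51, limma adjusted p = 0.035). On the other side, Gh_D04G1352 had 3.05 FPKM on average in Xu142 and 5.63 in *Xu142fl*, which is under 2-fold (log2 difference 0.86, limma adjusted p = 0.012). Around *BHLH93*, *BHLH35* and *BHLH82*, 0 of the 24 neighbours tested were called in either direction, against 6.14% of all genes, and their log2 differences ran from -0.91 to 0.66. The count of 3 called neighbours fell to 1 without Xu142 replicate 1, 2 or 3 or without *Xu142fl* replicate 3, and to 2 without *Xu142fl* replicate 1 or 2.

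**Figure D4:**
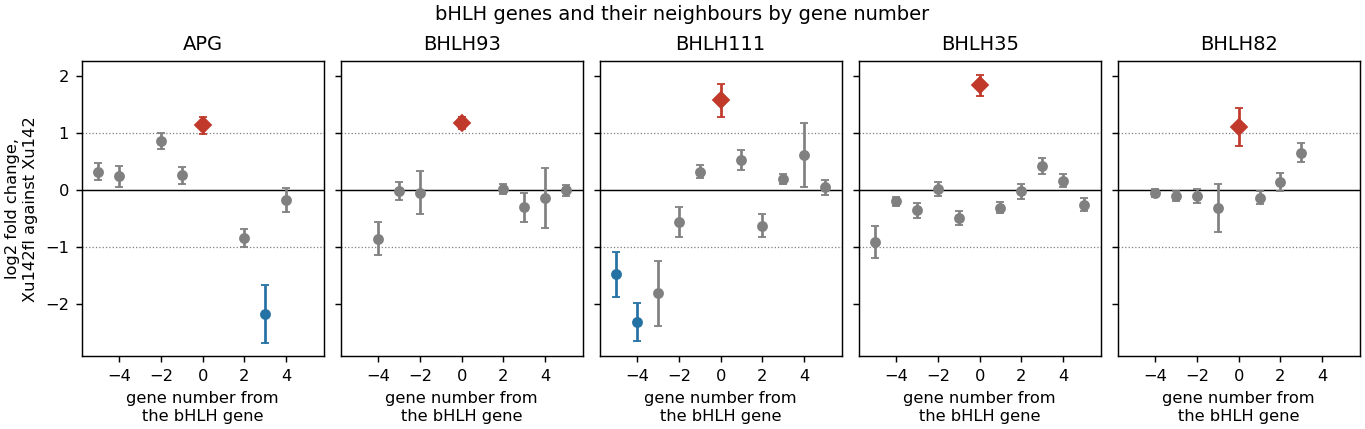
Log2 fold change of *Xu142fl* against Xu142 (vertical axis, ± standard error) for each bHLH gene (red diamond) and its tested neighbours (circles) by gene number counted from the bHLH gene. Blue circles mark the 3 neighbours called lower at an adjusted p of 0.05, near *APG* and *BHLH111*; dotted lines mark a 2-fold change, which only the diamonds exceed upwards.

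The size of the difference depended on single libraries to unequal degrees. With 1 library left out at a time, the log2 difference stayed between 1.11 and 1.23 for *BHLH93* and between 1.08 and 1.24 for *APG*. That of *BHLH35* ranged from 1.65 without Xu142 replicate 2 to 1.98 without Xu142 replicate 1. The widest ranges were those of *BHLH111*, from 1.31 without *Xu142fl* replicate 1 to 1.82 without Xu142 replicate 2, and *BHLH82*, from 0.78 to 1.28. *BHLH93* and *BHLH35* passed the limits at 0.05 under all 16 alternatives, *APG* under 15, *BHLH111* under 12 and *BHLH82* under 0 of the 15 in which it was tested. Over all genes, 0.806% to 2.84% were called higher at these limits with 1 library left out. The members were chosen on this contrast, so their counts support nothing about them. Values of near-identical A and D subgenome copies are uncertain, because RSEM divides reads that fit more than 1 gene.

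**Figure D5:**
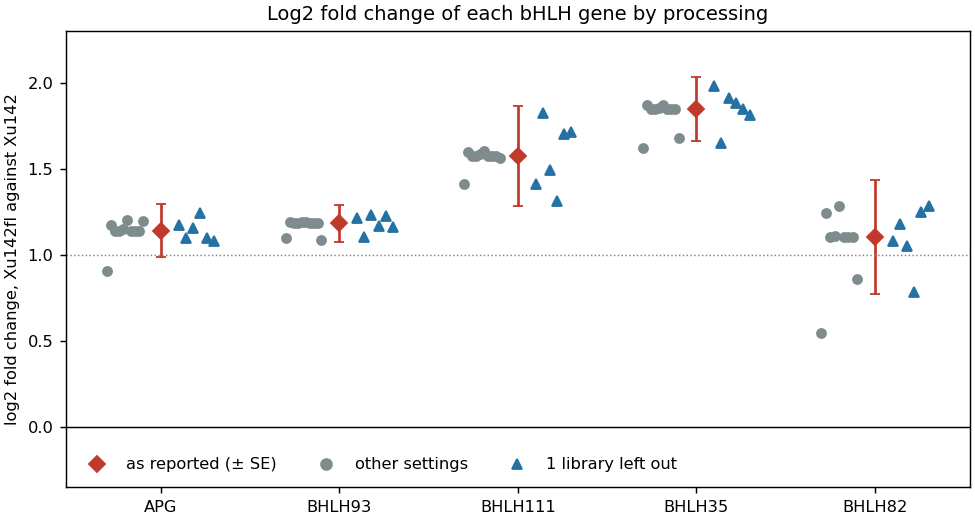
Log2 fold change of each bHLH gene (vertical axis) as reported with its standard error (red diamonds), under other settings (grey circles) and with 1 library left out (blue triangles). All points lie above 0, which the lack of overlap between lines fixed for most settings. Those below the dotted line of a 2-fold change belong to *APG* with a pseudocount of 1 (0.91) and to *BHLH82* (0.54 to 0.86).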

How the data were processed

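The authors mapped filtered reads to the TM-1 assembly (Bowtie2 for annotated genes, HISAT2 and StringTie for new transcripts), estimated expression with RSEM and deposited FPKM values, one column per library, with no stated scaling between libraries. HISAT2 2.1.0 is named in the submitters' processing notes. In the table, 56395 genes averaged 0.1 FPKM or more, including all 5 bHLH genes. Their log2(FPKM + 0.1) were fitted with limma 3.58.1 (R 4.3.3, intensity trend, two-sided), with Benjamini-Hochberg adjustment over all genes. DEGseq, which the study used, needs read counts and was not run. The fit was first run on simulated data. Python 3.11.15 with pandas 2.3.3, numpy 2.4.6 and matplotlib 3.10.9 was used for summaries.

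The members and lists were chosen with earlier results of these data known. Named genes were the 5 members, the MML3 genes, the nearest gene in profile to each member, and neighbours (within 5 gene numbers) called at 0.05. Other genes beside these were named after their values were seen. The RefSeq table of assembly Gossypium_hirsutum_v2.1 held 0 of these 5 IDs, hence no sequence or coordinate is given. Alternatives were other pseudocounts, filters and scalings, no trend, leaving out predicted new genes, a block by replicate number and leaving out each library. One, without the pair of libraries that stood apart, was chosen after seeing the data.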

Additional observations from a re-analysis of the deposited data

How the results depend on the processing

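All 5 log2 fold changes stayed above 0 under every alternative run. For most alternatives this sign was fixed, since the lines did not overlap in any of the 5 genes. Leaving out libraries or changing the pseudocount, filter or trend could therefore not reverse it. With a pseudocount of 1, those of *APG* and *BHLH82* shrank to 0.91 and 0.54, which is under 2-fold. Of the bHLH genes, 0 passed at an adjusted p of 0.001 with all libraries, 2 (*BHLH93* and *BHLH35*) passed under quantile normalization, and 4 passed at 0.05. At 0.05 the count was 3 or 4 in the alternatives. These counts carry no support, since the genes were chosen on this contrast. *BHLH111* was lost without Xu142 replicate 1 or 3, without *Xu142fl* replicate 2 and with the replicate block. Called neighbours were 0 at 0.001 and 3 at 0.05, and 1 at 0.05 with the replicate block. Over all genes, 423 were called at 0.001 (110 higher and 313 lower) and 3463 at 0.05 (940 higher and 2523 lower). Leaving out 1 library gave 37 to 273 at 0.001 and 1936 to 4609 at 0.05 (455 to 1600 higher). At 0.05 the fewest were called without Xu142 replicate 3 (1936), *Xu142fl* replicate 2 (1972) or Xu142 replicate 1 (1975). Leaving out the pair that stood apart gave 151 at 0.001 and 4662 at 0.05. The share of higher calls at 0.05 rose under quantile normalization, with 1169 higher and 2193 lower. The MML3 check called 2 genes at 0.001, 1 or 2 with 1 library left out and 1 without the pair that stood apart.

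Between libraries with the same replicate number, the correlation of deviations from the line means was -0.25, -0.23 and 0.14 for numbers 1 to 3. These values cannot show whether such libraries were collected together, since the deviations within a line sum to 0. With the number as a block, 2 genes were called at 0.001, 2048 at 0.05 and 0 of the MML3 genes at 0.001. BHLH82 was not tested with a filter of 1 FPKM. The table gives no read counts, so the precision of weak genes such as BHLH82 is judged from the spread between the 3 libraries of each line. The limma standard errors also draw on the variances of other genes.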
